A study of Mus musculus with 35 samples.

Results

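Srebf1, Srebf2, Scap, Insig1, Insig2, Stard4, Abca1 and Npc1 encode the SREBP transcription factors, the proteins that hold or release them, and proteins that move sterols into, within or out of cells. These 8 genes were taken by name from 24421 genes in each count file, and all 8 passed the filter on low counts in the populations and in the clones. RNA-seq counts came from 35 libraries of immortalized mouse embryonic fibroblasts (MEFs), all of genotype Nelfb flox/-, in which adenoviral Cre (Ad-Cre) removes the remaining Nelfb allele, the gene of a subunit of the negative elongation factor (NELF). The 20 population libraries had the pLenti vector with nothing in it (EV), with wild-type NELFB (WT), with MT194, with MT486 or with the double mutant of both (DMT), each taken 7 days after Ad-Cre carrying GFP as well (written Cre) or after Ad-GFP alone (written GFP), with 2 replicates a group. The 15 clone libraries were 3 clones each of WT, MT194 and MT486 in pLenti and of WT(N48) and Δ-C60 in pBabe, all isolated as single clones after Ad-Cre. By the study's methods, MT194 lost binding to NELFA and NELFC, MT486 and the C-terminal truncation Δ-C60 lost binding to NELFE, and WT(N48) is labelled as wild-type NELFB from an ATG start. All populations came from stable lines of the same immortalized MEFs, so a replicate is a repeat of the infection and not another embryo, and each clone carries its own integration and history. Each population library held between 17969149 and 29080007 reads on genes, and each clone library between 18413284 and 27816723.

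SREBP-1, made from Srebf1, and SREBP-2, made from Srebf2, are synthesized as membrane proteins of the endoplasmic reticulum. When cholesterol is low, SCAP escorts them to the Golgi, where proteases release the part that enters the nucleus and switches on genes of sterol and fatty acid synthesis and of sterol uptake. When cholesterol is high, INSIG1 or INSIG2 binds SCAP and keeps the complex in place. Insig1 and Srebf2 are themselves targets of the nuclear factor, which closes feedback loops, and Stard4, a carrier of cholesterol between membranes, is a known target as well. NPC1 lets cholesterol leave lysosomes after uptake, and ABCA1, a target of the liver X receptors (LXR), exports cholesterol from the cell.

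Upstream sequences of 3 members are shown because 2 of them fell together after Cre and the third, the paralogue Insig2, was not called. They come from RefSeq (GRCm38.p6) and run 5′ to 3′ up to the last base before the first annotated exon in the window. Each RefSeq window holds 250 bases before and 50 after a start site, and 6 of the 8 members had 11 windows between them (Stard4 and Npc1 had none). Capitals mark the letters TCACNCCA, the core of a sterol response element, or the E-box CACGTG, searched on both strands, and these core letters were chosen after the Srebf2 window had been read. Srebf2 is at chr15:82147019-82147180 (plus strand), Insig1 at chr5:28071162-28071362 (plus strand) and Insig2 at chr1:121332590-121332839 (minus strand, before its outermost start).
Srebf2: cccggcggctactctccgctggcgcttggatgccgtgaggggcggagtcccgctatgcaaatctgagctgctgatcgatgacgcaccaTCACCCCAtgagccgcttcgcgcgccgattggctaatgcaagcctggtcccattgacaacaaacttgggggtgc
Insig1: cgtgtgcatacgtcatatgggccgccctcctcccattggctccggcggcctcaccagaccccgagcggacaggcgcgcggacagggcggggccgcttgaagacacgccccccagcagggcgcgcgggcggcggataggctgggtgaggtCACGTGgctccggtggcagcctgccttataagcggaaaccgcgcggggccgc
Insig2: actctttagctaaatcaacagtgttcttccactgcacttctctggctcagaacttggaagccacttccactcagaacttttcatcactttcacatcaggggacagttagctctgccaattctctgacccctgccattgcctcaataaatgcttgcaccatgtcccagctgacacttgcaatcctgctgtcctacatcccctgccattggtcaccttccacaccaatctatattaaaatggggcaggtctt

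TCACNCCA was present in 1 of the 11 member windows, that of Srebf2, and in 4.36% of all 32851 RefSeq windows of this length. CACGTG was present in windows of Insig1, Abca1 and Scap (4 windows, of which the pair of Scap overlap) and in 7.15% of all windows. The Insig2 stretch held neither, nor did the other windows of Insig2, and which start these cells use was not tested. For comparison, TCACNCCA was in 2 of 18 windows of genes for sterol synthesis enzymes (Hmgcs1 and Msmo1), 1 of 11 of lipogenic enzymes (Gpam), 0 of 13 of SREBP processing and turnover, 0 of 10 of LXR and its targets and 1 of 20 of sterol uptake, storage and transport (Stard3). The letters CCAAT were in 5 of the 11 member windows (37.41% of all windows) and GGGCGG in 9 of 11 (35.66%), neither overlapping the marked letters. A match of letters describes the sequence and is not a binding site.

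The targeted gene was read first. Nelfb, on chr2:25199712-25211489 (minus strand), had 46.1 and 39.5 CPM (gene counts scaled to each library's size, with edgeR's TMM factors) in EV-GFP and 7.97 and 5.46 in EV-Cre. With a construct present, the Cre libraries held 75.9 and 60.5 CPM in WT, 104 and 119 in MT194, 116 and 128 in MT486 and 169 and 208 in DMT, all above EV-Cre, and reads of the construct, which codes for mouse NELFB, count as Nelfb here. In the clones, the libraries labelled WT held 10.3, 109 and 15.5 CPM, so clones 1 and 3 were far below every other clone while clone 2 was not. The other clones held 56.3 to 247 CPM. Results against the libraries labelled WT are therefore given with and without clones 1 and 3. Of 8 fibroblast markers, 7 were above 1 CPM in every library (Fn1 was the highest in 34 of 35 libraries and Vim in 1) and Thy1 was at 0 in 13 populations and 11 clones and at most 0.16 CPM in the others. Summed over their lists, 5 epithelial markers reached at most 1.29 CPM in a population and 2.02 in a clone (Cdh1 was mostly the highest), 4 haematopoietic markers between 3.94 and 10.03 per population and between 0.913 and 6.03 per clone (from Cd68 and, in the populations, Lyz2), and 3 endothelial markers at most 0.879 in a population and 4.74 in a clone (from Kdr). Ptprc, the defining haematopoietic marker, was at most 0.12 CPM and at 0 in 20 libraries.

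**Figure D1:**
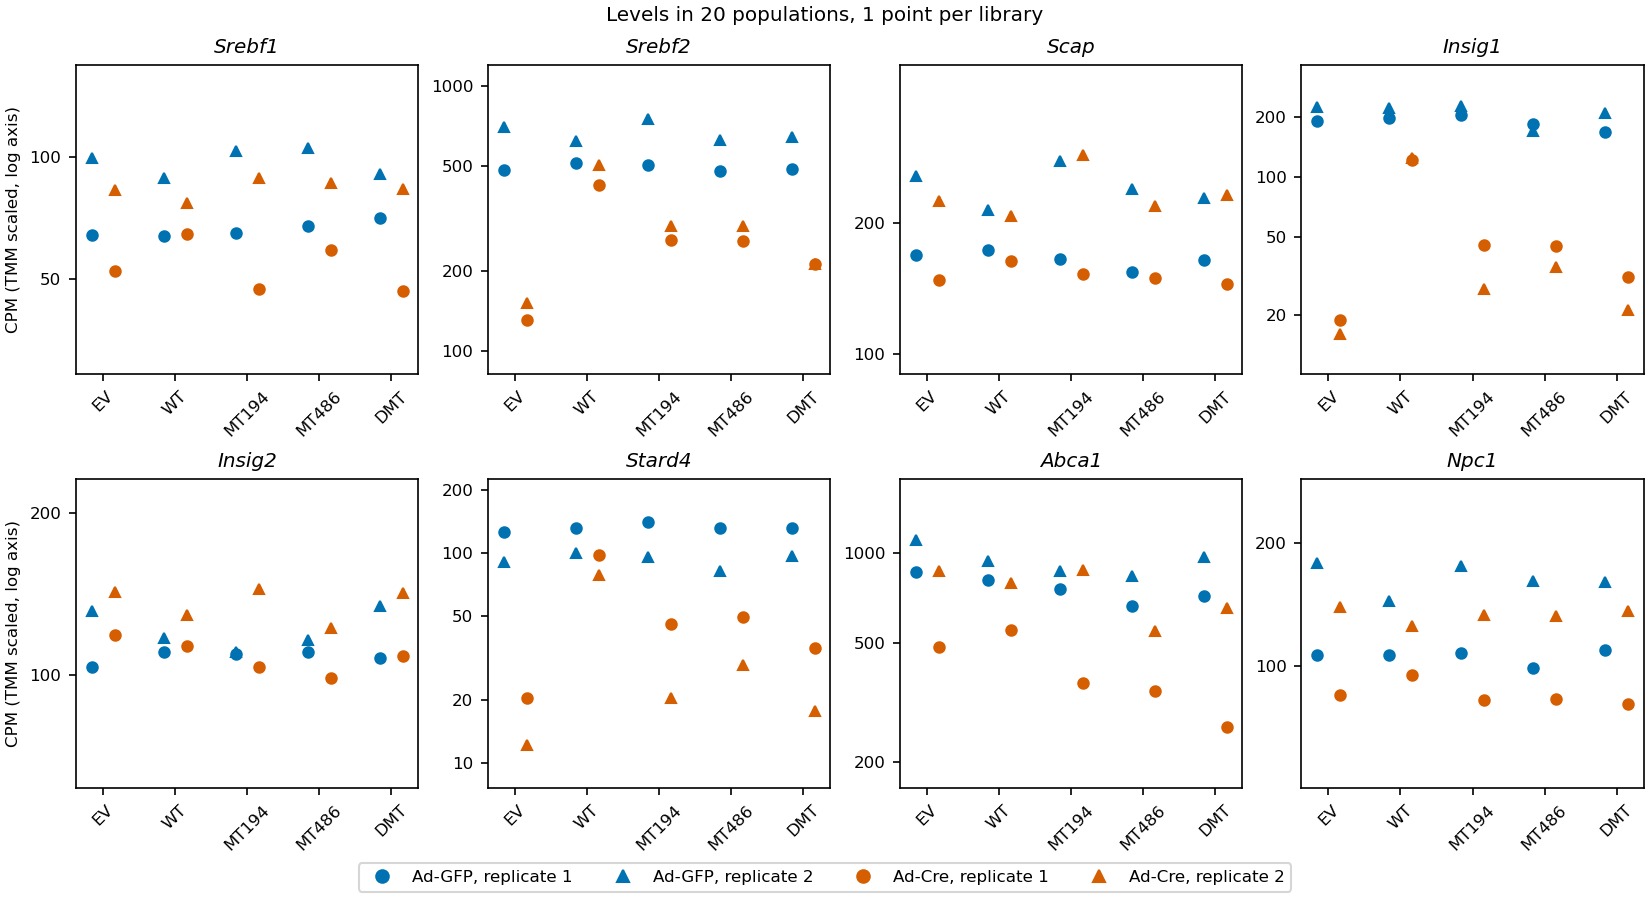
Levels of the 8 genes in the 20 populations, as CPM on a log axis by construct, with blue for Ad-GFP, orange for Ad-Cre, circles for replicate 1 and triangles for replicate 2. Srebf2, Insig1 and Stard4 are lower in every Cre library of EV, MT194, MT486 and DMT than in any GFP library, whereas for Srebf1, Scap, Insig2 and Npc1 the Cre and GFP libraries overlap in all 5 constructs and for Abca1 in EV and MT194.

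Srebf2 (chr15:82147181-82205379, plus strand), the gene of the factor that mainly drives sterol synthesis and uptake, fell after Cre in EV. In bulk libraries, fewer cells that express a gene and less RNA of it per cell cannot be told apart. The EV-GFP libraries held 483 and 703 CPM and the EV-Cre libraries 131 and 151, a log2 fold change of −2.07 (SE 0.26, adjusted p = 0.000291), or 4.201-fold lower. Adjusted p-values here and below are from edgeR's quasi-likelihood test over all genes tested, and a gene is called at an adjusted p under 0.05 with an absolute log2 fold change over 0.5. In EV, 11.8% of the 13805 genes tested were called, and 3 of the 8 members were, all lower (lower calls made up 5.94% of the genes tested). With MT194 the libraries held 504 and 752 CPM under GFP and 262 and 298 under Cre, and with DMT 485 and 646 under GFP and 213 and 213 under Cre. Both falls were called, with log2 fold changes of −1.17 (SE 0.26, adjusted p = 0.0207) and −1.41 (SE 0.26, adjusted p = 0.00412). With MT486 the values were 477 and 626 CPM under GFP and 260.2 and 297 under Cre, a log2 fold change of −0.99 (SE 0.26, adjusted p = 0.0638) that missed the threshold. With WT they were 513 and 622 CPM under GFP and 425 and 507 under Cre, a log2 fold change of −0.28 (SE 0.25, adjusted p = 1). The Cre and GFP libraries did not overlap in any of the 5 constructs, but in WT the gap was small beside the others. With 2 libraries a group, such separation says little by itself. The share of all genes whose groups did not overlap was not counted for this or any other pair of construct groups.

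The replicate numbers pair the populations, and in the fit with the replicate as a block the difference of Srebf2 in MT486 was called at −0.97 (SE 0.12, adjusted p = 2.5e-05), where 12.1% of genes were. DESeq2 called it as well (adjusted p = 0.00251, 3.45% of genes called). In EV the block called the same 3 members, with 25.4% of genes called. The adjusted p of the call in MT194 was 0.0207 and rose to between 0.0756 and 0.178 without MT194-Cre replicate 1, MT194-Cre replicate 2 or MT194-GFP replicate 2. Fits that left out a library, here and below, had no block and left its partner unpaired. Within replicates, Srebf2 in MT194 differed by −0.94 and −1.33 between Cre and GFP on the log2 scale. On the log2 scale, the Cre effect on Srebf2 in WT minus that in EV was 1.79 (SE 0.36, adjusted p = 0.0479), where 0.681% of genes were called, and it was called in 1 of the 8 fits that left out a library (adjusted p = 0.0491 to 0.27). With the block it was called at 1.77 (SE 0.17, adjusted p = 4.87e-06), where 13.4% of genes were. DESeq2 called it at 1.78 (adjusted p = 6e-05), where it called 2.10% of genes. Against EV-Cre, Srebf2 was higher in WT-Cre by 1.72 (SE 0.26, adjusted p = 0.00243), where 7.37% of genes were called. The log2 differences from EV-Cre were 0.99 in MT194-Cre, 0.98 in MT486-Cre and 0.60 in DMT-Cre, none called by edgeR without the block and all called with it (adjusted p = 0.0001, 9.19e-05 and 0.0356). Without the block 0.225%, 0.362% and 0.00724% of genes were called in these comparisons, and with it 6.22%, 8.95% and 0.348%. DESeq2, also without the block, called Srebf2 in MT194-Cre and MT486-Cre (adjusted p = 0.00578 and 0.00487), where it called 1.06% and 2.05% of genes. Against WT-Cre, DMT-Cre was lower, with a log2 difference of −1.13 (SE 0.26, adjusted p = 0.0335), a call that was lost without any of the 4 libraries in turn (adjusted p = 0.12 to 0.22), and MT194-Cre and MT486-Cre differed by −0.74 and −0.74, called with the block only. DMT-Cre was also called with the block (adjusted p = 6.88e-06, 14.2% of genes called) and by DESeq2 (adjusted p = 0.000252, 3.64% of genes called). By mean CPM the order of the Cre groups was WT, MT194, MT486, DMT and EV, and only MT194 and MT486 had overlapping libraries.

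Srebf1 (chr11:60199089-60222581, minus strand), the gene of the factor tied more to fatty acid synthesis, was not called in any comparison. Its 20 population libraries ranged from 46.6 to 105 CPM with a median of 73.7. The Cre effects lay between −0.31 in DMT and −0.11 in WT on the log2 scale, with an SE of about 0.40 in each. Replicate 2 was above replicate 1 in 10 of 10 groups, by a median of 0.64 on the log2 scale, a difference that enters this SE. Within replicates, the Cre library was below its GFP partner in 9 of 10 pairs. With the replicate block the Cre effect on Srebf1 in DMT was −0.35 (SE 0.12, adjusted p = 0.026), too small in size for a call. The block called 23.1% of all genes there. In the other constructs its adjusted p for Srebf1 lay between 0.0503 in MT194 and 0.723 in WT. In the 15 clones Srebf1 ranged from 49.2 to 108 CPM with overlap between neighbouring groups throughout. Srebf1 shares 109 exon bases (1.94% of its exon length) with Rai1 on the other strand and 66 with Mir6922 on the same strand, and the strand setting of the counting is not given in the sources used here.

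Insig1 (chr5:28071363-28078662, plus strand), the inducible anchor of SCAP, had the largest Cre effect of the 8 members in each of the 5 constructs. In EV it was at 193 and 227 CPM under GFP and 19.1 and 16.2 under Cre, a log2 fold change of −3.57 (SE 0.26, adjusted p = 1.28e-05), or 11.9-fold lower. In MT194 the levels were 205 and 229 CPM against 45.5 and 27.2, in MT486 184 and 171 against 44.8 and 35.04, and in DMT 169 and 212 against 31.3 and 21.3. All 3 were called, with −2.58 (SE 0.25, adjusted p = 0.000272) in MT194, −2.15 (SE 0.25, adjusted p = 0.00102) in MT486 and −2.86 (SE 0.26, adjusted p = 5.43e-05) in DMT. In these constructs 4.22%, 2.42% and 9.92% of genes were called, of which those lower after Cre made up 2.33%, 1.28% and 5.34% of the genes tested. WT held 198 and 222 CPM under GFP and 122 and 124 under Cre. That log2 fold change of −0.77 (SE 0.24, adjusted p = 0.503) was not called, and the libraries did not overlap. In WT 0.0217% of genes were called, and Insig1 was the only one of the 8 members with an unadjusted p under 0.05. DESeq2 and the fit with the block called none of the 8 there, the block calling 3.09% of genes.

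Compared directly, the Cre effect on Insig1 in WT minus that in EV was 2.80 (SE 0.34, adjusted p = 0.00541) on the log2 scale, a call lost without WT-GFP replicate 1 (adjusted p = 0.0508). For MT194, MT486 and DMT no member's Cre effect was called as different from that in EV, 0.00724% of genes were, and 2, 2 and 0 members had an unadjusted p under 0.05. With the block, Srebf2 was called in MT194 at 0.91 (SE 0.17, adjusted p = 0.0163) and Srebf2, Insig1 and Stard4 in MT486 at 1.08, 1.42 and 1.32, where 0.978% and 2.68% of genes were, and DESeq2 called Insig1 in MT486 alone. WT-Cre was above EV-Cre by 2.81 (SE 0.26, adjusted p = 0.000134), and with the block by 2.81 (SE 0.25, adjusted p = 8.32e-06), where 23.0% of genes were called. MT194-Cre, MT486-Cre and DMT-Cre were below WT-Cre, with log2 differences of −1.76 (SE 0.25, adjusted p = 0.00481), −1.63 (SE 0.24, adjusted p = 0.0263) and −2.23 (SE 0.25, adjusted p = 0.00121). In these comparisons 1.38%, 0.109% and 2.94% of genes were called. The call for MT486-Cre was lost without any of the 4 libraries in turn (adjusted p = 0.148 to 0.587), and that for MT194-Cre was lost without MT194-Cre replicate 2 (adjusted p = 0.0504). Above EV-Cre, the log2 differences were 1.05 (SE 0.24, adjusted p = 0.122) in MT194-Cre and 1.18 (SE 0.25, adjusted p = 0.0601) in MT486-Cre. Both were called with the replicate block (adjusted p = 0.0188 and 0.00925) and by DESeq2 (adjusted p = 0.00448 and 0.000568). DMT-Cre differed from EV-Cre by 0.58 (SE 0.24, adjusted p = 1) and was called in none of these fits. These comparisons share the EV-Cre and WT-Cre libraries.

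Insig2 (chr1:121304353-121332589, minus strand), which makes the other anchor protein, did not pass the test in any population comparison. The EV-GFP libraries held 103 and 132 CPM and the EV-Cre libraries 119 and 142, a log2 fold change of 0.15 (SE 0.20, adjusted p = 0.694). Over all 20 populations Insig2 ranged from 98.7 to 145 CPM, a narrower range than that of Insig1, which went from 16.2 to 229. Divided by exon length, the level of Insig1 was 67.8 ± 7.79 CPM per kb (SD, n = 2) in EV-GFP and that of Insig2 was 33.8 ± 5.74. In EV-Cre they were 5.70 ± 0.654 for Insig1 and 37.6 ± 4.81 for Insig2, so the order of the paralogues was the opposite. Insig2 was also the higher per kb in MT194-Cre, MT486-Cre and DMT-Cre, while in WT-Cre the values were 39.9 ± 0.495 for Insig1 and 34.9 ± 3.33 for Insig2. All exons of a gene entered its length, so transcripts with fewer exons are understated alike in every group.

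Scap (chr9:110333288-110384950, plus strand), the escort of both SREBPs, was not called in any population comparison. Its libraries ranged from 144 to 286 CPM, and its Cre effects from −0.19 in EV to −0.01 in MT194 on the log2 scale, with an SE of about 0.39. As for Srebf1, replicate 2 was higher in 10 of 10 groups, by a median of 0.60 on the log2 scale. Of its exon bases, 13.2% are shared with 5830462I19Rik on the other strand.

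**Figure D2:**
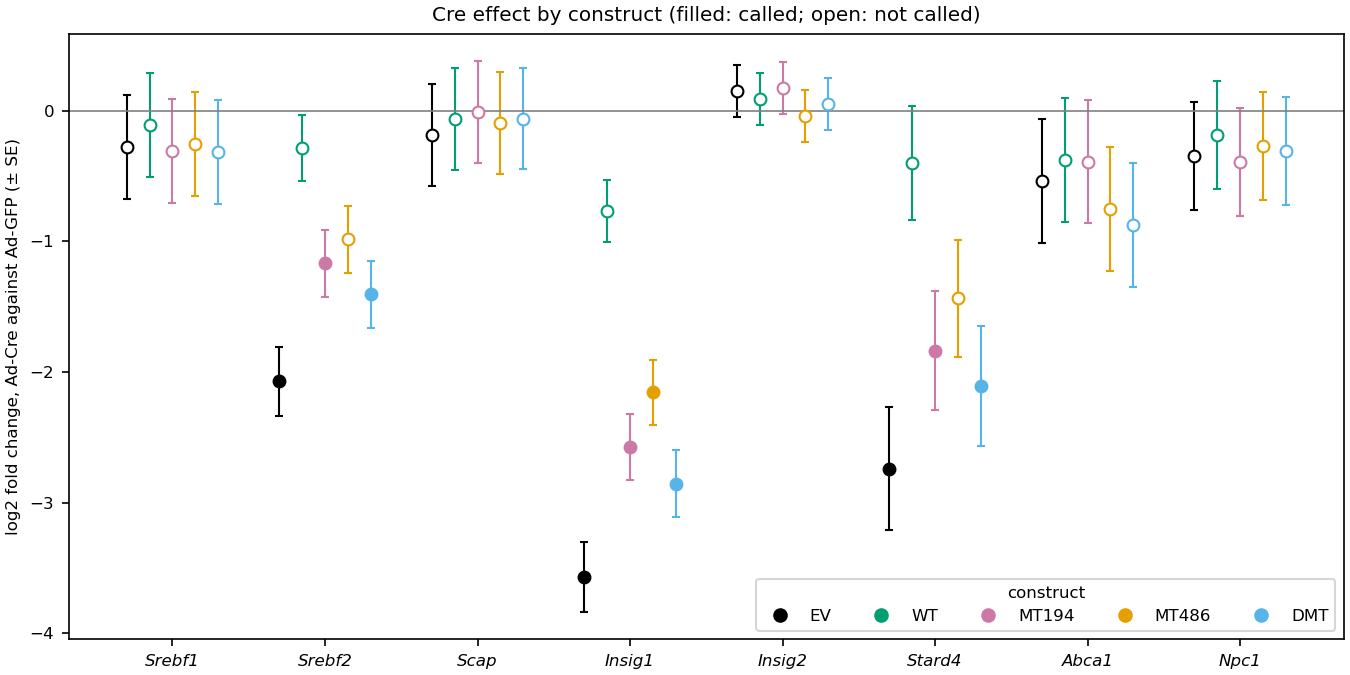
Log2 fold change of Ad-Cre against Ad-GFP (vertical axis, with SE) for each of the 8 genes in EV, WT, MT194, MT486 and DMT, filled where called. In each gene with calls, EV lies lowest and WT nearest to 0, and the 5 other genes stay within 1 log2 unit of 0 in all constructs.

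Stard4 (chr18:33199355-33213862, minus strand), a cytosolic carrier that moves cholesterol between membranes, followed Insig1 and Srebf2. The libraries held 126 and 91.1 CPM in EV-GFP and 20.3 and 12.1 in EV-Cre, a log2 fold change of −2.74 (SE 0.47, adjusted p = 0.00238), or 6.68-fold lower. In MT194 they held 141 and 95.7 CPM under GFP and 45.8 and 20.3 under Cre, and in DMT 131 and 96.5 under GFP and 35.2 and 17.6 under Cre. The falls were called, with log2 fold changes of −1.84 (SE 0.45, adjusted p = 0.0371) in MT194 and −2.11 (SE 0.46, adjusted p = 0.0107) in DMT. The first was lost without MT194-Cre replicate 2 or either MT194-GFP library (adjusted p = 0.0692 to 0.219), and the second without DMT-Cre replicate 2 or DMT-GFP replicate 1 (adjusted p = 0.106 and 0.063). In MT486, at 131 and 82.1 CPM under GFP and 49.6 and 29.2 under Cre, the log2 fold change was −1.44 (SE 0.45, adjusted p = 0.123) and was called only with the block (adjusted p = 4.78e-05) and by DESeq2 (adjusted p = 0.0287). In WT, at 132 and 99.9 CPM under GFP and 97.5 and 78.7 under Cre, it was −0.40 (SE 0.44, adjusted p = 1). Replicate 2 was lower than replicate 1 in 10 of 10 groups, the opposite order to Srebf1 and Scap.

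Against EV-Cre, Stard4 was higher in WT-Cre by 2.44 (SE 0.47, adjusted p = 0.00839), a call lost without EV-Cre replicate 2 or WT-Cre replicate 1 (adjusted p = 0.111 and 0.0595). Its Cre effect in WT minus that in EV was 2.34 (SE 0.63, adjusted p = 0.136) and was called with the block (adjusted p = 3.95e-05) and by DESeq2 (adjusted p = 0.0139). With the block, MT194-Cre, MT486-Cre and DMT-Cre were each below WT-Cre, with log2 differences of −1.49 (SE 0.17, adjusted p = 5.49e-05), −1.20 (SE 0.17, adjusted p = 0.000774) and −1.80 (SE 0.17, adjusted p = 8.11e-06), where 10.9%, 5.24% and 14.2% of genes were called. Above EV-Cre, the log2 differences of Stard4 were 1.03 (SE 0.45, adjusted p = 0.487) in MT194-Cre, 1.28 (SE 0.45, adjusted p = 0.25) in MT486-Cre and 0.70 (SE 0.45, adjusted p = 1) in DMT-Cre, and with the block the first and second were called (adjusted p = 0.00333 and 0.000548) and the third was not (adjusted p = 0.121). Against WT-Cre without the block edgeR called none of the 3, the nearest being DMT-Cre (adjusted p = 0.0593). DESeq2 without the block called Stard4 in MT194-Cre and DMT-Cre (adjusted p = 0.0467 and 0.00382), where it called 2.26% and 3.64% of genes.

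To put the mutants on a scale, each group's log2 level was placed between EV-Cre (0%) and WT-Cre (100%). Srebf2 stood at 57.3% in MT194-Cre, 57.0% in MT486-Cre and 34.7% in DMT-Cre. Insig1 stood lower, at 37.3%, 42.0% and 20.5%. Stard4 stood at 42.1%, 52.4% and 28.7%. In both replicates the 3 genes were lowest in DMT, but the replicates differed, with 46.6% and 25.1% for Insig1 in MT194 and 51.6% and 27.0% for Stard4 in MT194, against 58.8% and 55.96% for Srebf2 in MT194. These percentages share the EV-Cre and WT-Cre libraries and are given without a test.

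Npc1 (chr18:12189692-12236400, minus strand), through which cholesterol leaves the lysosome, was not called in any comparison. Its Cre effect was −0.34 (SE 0.41, adjusted p = 0.665) in EV and lay between −0.39 and −0.19 in the other constructs. With the replicate block the adjusted p was 0.00594 in EV, 0.00389 in MT194, 0.0402 in MT486 and 0.00751 in DMT. The log2 fold changes in that fit, −0.34, −0.39, −0.27 and −0.33, were too small for a call. The block called 25.4%, 14.5%, 12.1% and 23.1% of all genes in these constructs. In WT it gave −0.18 (adjusted p = 0.247) for Npc1. The populations ranged from 80.7 to 179 CPM, with replicate 2 above replicate 1 in 10 of 10 groups by a median of 0.69 on the log2 scale. Within replicates, the Cre library was below its GFP partner in 10 of 10 pairs, by 0.16 to 0.43 on the log2 scale. Npc1 shares 511 exon bases (4.52%) with Rmc1 and 90 with Gm15956, both on the other strand.

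Abca1 (chr4:53030787-53159895, minus strand), the exporter of cholesterol, had the highest level per kb of the 8 genes in EV-GFP, at 94.8 ± 16.4 CPM per kb (SD, n = 2), followed by Srebf2 at 82.5 ± 21.6 and Insig1. In EV-Cre it remained the highest at 65.3 ± 26.4, while Srebf2 stood at 19.6 ± 2.00 and Stard4 was lowest at 2.91 ± 1.03. The libraries held 863 and 1103 CPM in EV-GFP and 483 and 869.8 in EV-Cre, overlapping, with a log2 fold change of −0.54 (SE 0.47, adjusted p = 0.527). In MT486 they held 663 and 839 CPM under GFP and 346 and 546 under Cre, and in DMT 716 and 966 under GFP and 262 and 655 under Cre, without overlap. Their log2 fold changes of −0.75 (SE 0.47, adjusted p = 0.55) and −0.87 (SE 0.48, adjusted p = 0.289) were not called, but with the replicate block both were, at −0.78 (SE 0.25, adjusted p = 0.042) and −0.96 (SE 0.26, adjusted p = 0.0093). With the block, 12.1% of genes were called in MT486 and 23.1% in DMT. In WT the Abca1 libraries did not overlap either, with 809 and 938 CPM under GFP and 551 and 795 under Cre. That log2 fold change of −0.38 was not called with the block or without. In MT194 replicate 1 differed by −1.04 between Cre and GFP and replicate 2 by 0.01, on the log2 scale, so that the pair of experiments did not show the same change.

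Under GFP, where the floxed allele remained, the test found no difference of any construct from EV in the 8 genes. The constructs were not compared with each other under GFP. None of the 8 was called in WT-GFP, MT194-GFP, MT486-GFP or DMT-GFP against EV-GFP, none reached an unadjusted p under 0.05, and neither DESeq2 nor the fit with the block called any of them. The share of genes called was 0% in WT, MT194 and DMT and 0.00724% in MT486, and with the block it was 0% in WT, 0.116% in MT194, 0.159% in MT486 and 0.0580% in DMT. The largest difference was −0.39 (SE 0.47, adjusted p = 1) for Abca1 in MT486-GFP. Insig1 differed by −0.24 (SE 0.24, adjusted p = 1) in MT486-GFP.

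Genes of the same pathway were read from lists set beside the members. Of 19 genes for sterol synthesis enzymes, 19 fell in EV upon Cre, where 11.8% of all genes tested were called and 5.94% were called lower. Their median was −2.84 on the log2 scale, and that of all genes tested was 0.00. Among the largest falls were those of Idi1 (isopentenyl diphosphate isomerase) with −4.11 (SE 0.87, adjusted p = 0.00836) and Fdps (farnesyl diphosphate synthase) with −3.69 (SE 0.42, adjusted p = 0.000181). In MT194 16 of the 19 fell, in MT486 15 and in DMT 18 (of all genes, 2.33%, 1.28% and 5.34% were called lower), with medians of −2.20, −1.98 and −2.45. In WT none was called without the block, 8 had an unadjusted p under 0.05 and the median was −0.62, while DESeq2 called 3 (Hsd17b7, Lss and Nsdhl, named after their values were seen) and the block 8, all lower. In WT 0.0217% of all genes were called by edgeR without the block, 0.309% by DESeq2 and 3.09% with the block. Against WT-Cre, 10 were lower in MT194-Cre, 2 in MT486-Cre (Nsdhl and Hsd17b7) and 16 in DMT-Cre, and with the block 18, 18 and 19, where 1.38%, 0.109% and 2.94% of all genes were called without the block and 10.9%, 5.24% and 14.2% with it.

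Of 12 lipogenic enzymes, 9 fell in EV, 7 in MT194, 6 in MT486 and 9 in DMT, and none was called in WT. Of all genes tested, 11.8%, 4.22%, 2.42%, 9.92% and 0.0217% were called. Scd1 and Scd2, which desaturate fatty acids, had log2 fold changes of −2.93 (SE 0.24, adjusted p = 2.53e-05) and −2.77 (SE 0.35, adjusted p = 0.00027) in EV, and Elovl6, which elongates them, −2.42 (SE 0.29, adjusted p = 0.000206). In WT, where 3 had an unadjusted p under 0.05, Scd1, Scd2 and Elovl6 were at −0.61, −0.50 and −0.43, DESeq2 called Acss2 (0.309% of all genes called), and the fit with the block called Acly, Acss2 and Scd1 (3.09% of all genes called), all lower. These enzymes are known targets of SREBP-1, whose gene Srebf1 was not called.

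The genes around the SREBPs gave few calls, against 11.8% of all genes called and 5.94% called lower in EV, and nothing is read from these counts about the lists. Of 12 genes for their processing and turnover, among them the Golgi proteases Mbtps1 and Mbtps2, none was called in EV, WT, MT194, MT486 or DMT, none had an unadjusted p under 0.05 in EV, and the median in EV was −0.07. With the block 1 of the 12 was called in EV, Rnf145, lower, where 25.4% of all genes were called, and DESeq2, which called 10.1% of all genes, called none there. Of 8 tested genes for LXR and its targets, 1 fell in EV, Lpcat3 (a phospholipid remodelling enzyme) with −1.41 (SE 0.39, adjusted p = 0.0304), while Nr1h3, the gene of LXR alpha, was at 0.55 (SE 0.20, adjusted p = 0.102) and was called with the block alone. In MT194 and DMT the gene that fell was Nr1h2, that of LXR beta, at −0.69 and −0.59. Rnf145, Nr1h3 and Nr1h2 are named after their values were seen. Abcg1, another exporter, did not pass the filter on low counts. Of 16 genes for sterol uptake, storage and transport, 2 fell in EV, Tmem97 (a sterol-binding membrane protein) with −1.46 (SE 0.38, adjusted p = 0.024) and Scarb1 (a lipoprotein receptor) with −1.31 (SE 0.26, adjusted p = 0.00546), and 1 rose, Cav1 (the coat protein of caveolae) with 1.39 (SE 0.19, adjusted p = 0.000406). Cav1 also rose in MT194, MT486 and DMT (log2 fold changes of 1.52 in MT194 and 1.15 in MT486 and a fold change of 3.03 in DMT) and was at 0.95 (SE 0.18, adjusted p = 0.165) in WT. Scarb1 also fell in MT194 and DMT, at −1.07 and −1.33.

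**Figure D3:**
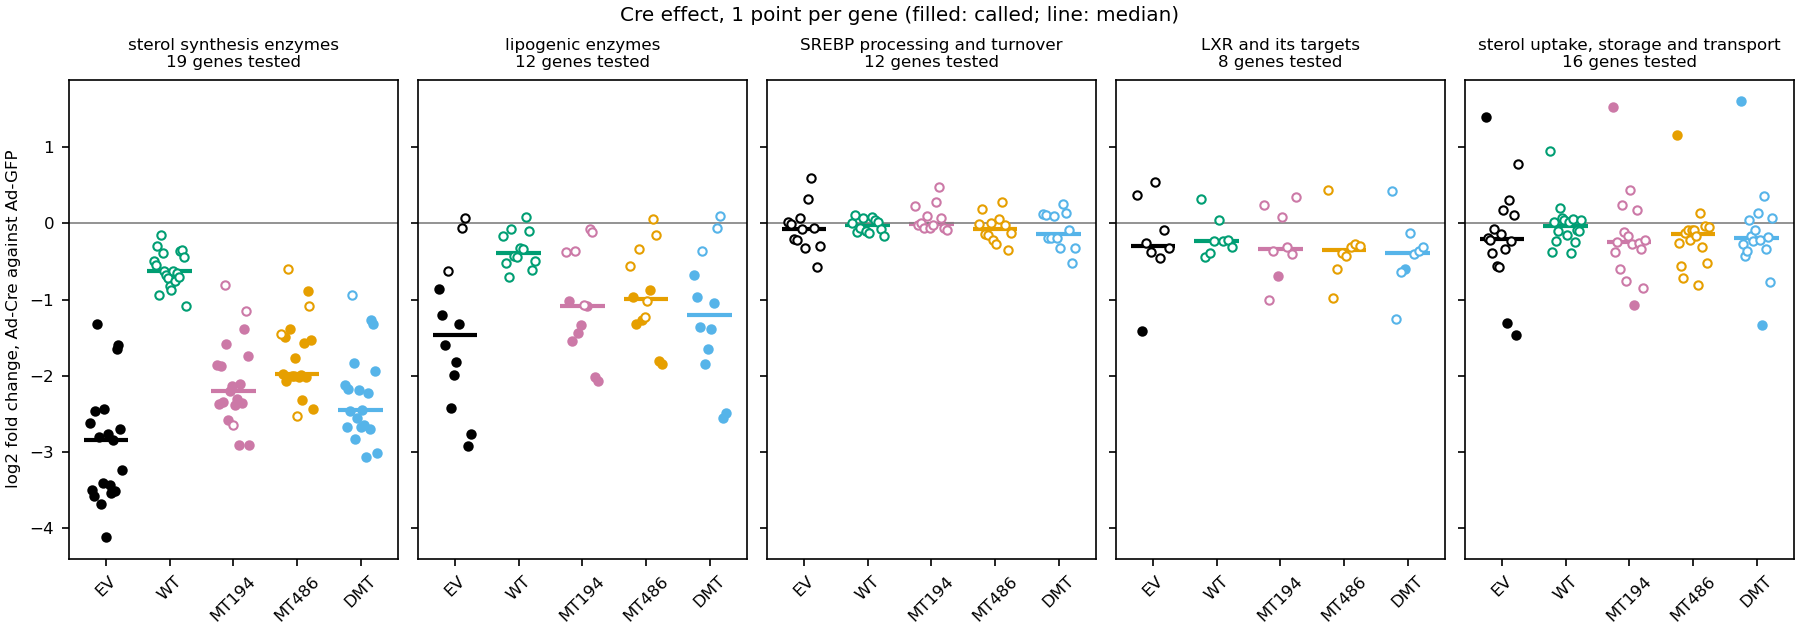
Log2 fold change of Ad-Cre against Ad-GFP (vertical axis) for the genes of 5 lists in EV, WT, MT194, MT486 and DMT, 1 point per gene, filled where called, with a line at the median. The 19 sterol synthesis enzymes lie furthest below 0 in EV (median −2.84) and nearest to it in WT (median −0.62), whereas the medians of the SREBP processing and LXR lists lie between −0.39 and −0.01 in all constructs, with Lpcat3 of the LXR list at −1.41 in EV.

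Across the 20 populations, the genes whose levels were most like those of Insig1 on the log2 scale were Nsdhl (r = 0.995), Mvk (0.995) and Lipg (0.994), among 9439 genes that averaged 10 CPM or more. For Srebf2, Elovl6 (r = 0.994) and Sqle (0.991) were most like it, and for Stard4 Agfg2 (0.992), Hmgcs1 (0.991) and Acat2 (0.990). Over the 15 clones the same pairs had r = 0.849, 0.925 and 0.859 for Insig1, 0.877 and 0.929 for Srebf2 and 0.574, 0.903 and 0.786 for Stard4. For the members that were not called after Cre, the genes most like them were Hyal2, Ptpra and Dolk for Scap (r = 0.991, 0.990 and 0.988), Pcnxl3, Slc39a7 and Ghdc for Srebf1 (0.984, 0.977 and 0.977), Slc12a7, Atp6v0b and Pcnxl3 for Npc1 (0.981, 0.978 and 0.976), Scamp5, Manba and Npy1r for Abca1 (0.955, 0.953 and 0.952) and Por, Dhrs7 and Cpe for Insig2 (0.929, 0.926 and 0.923). Over the clones these pairs had r = 0.612, −0.211 and 0.138 for Scap, −0.322, −0.154 and 0.329 for Srebf1, 0.498, −0.131 and −0.0178 for Npc1, 0.0857, 0.481 and −0.501 for Abca1 and 0.459, 0.772 and 0.00495 for Insig2, so that 6 of the 15 were below 0. Among the members, Insig1 and Stard4 had r = 0.959 and Insig1 and Srebf2 r = 0.952 over the populations, and Srebf1 and Npc1 r = 0.966. Over the clones these were 0.905, 0.905 and 0.266. Insig1 and Insig2 had r = −0.346 over the populations and −0.719 over the clones. Each r is over libraries that share the Cre treatment and the 2 experiments, and is given as a description.

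In the stable clones the same 3 genes were lower in MT194, in pLenti, than in WT(N48), in pBabe, but were not called against the WT-labelled clones in pLenti. Against WT(N48), 4 of the 8 members were called where 5.82% of 13223 genes tested were. Insig1 held 97.8, 112 and 168 CPM in the WT(N48) clones and 35.7, 12.7 and 27.7 in the MT194 clones, a log2 fold change of −2.31 (SE 0.31, adjusted p = 0.00419). Stard4 held 111, 112 and 169 CPM in WT(N48) and 41.4, 22.1 and 42.6 in MT194, or −1.88 (SE 0.33, adjusted p = 0.0107). Srebf2 held 719, 653 and 568 CPM in WT(N48) and 284, 198 and 282 in MT194, or −1.34 (SE 0.19, adjusted p = 0.00529). The clones of these groups did not overlap for any of the 3 (the share of all genes without overlap was not counted), and each call held without any of the 6 clones in turn. With these groups fitted alone, Srebf2 and Stard4 were called and Insig1 was not, at −2.30 (SE 0.41, adjusted p = 0.0549). Insig2 was not called there either (adjusted p = 0.0739). Insig2 went the other way, with 48.4, 60.3 and 45.9 CPM in WT(N48) and 79.0, 107 and 85.8 in MT194, a rise of 0.82 (SE 0.18, adjusted p = 0.0248) whose call was lost in 5 of the 6 fits that left out a clone.

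Abca1 was uneven in the WT(N48) clones, with 7.35, 28.3 and 112 CPM, against 369, 188 and 175 in MT194. The log2 fold change was 2.31 (SE 0.70, adjusted p = 0.0677), DESeq2 called it (adjusted p = 0.0044), and without WT(N48) clone 3 it was 3.78 (adjusted p = 0.00581). Scap was also highest in WT(N48) clone 3 of that group, at 93.3, 92.7 and 167 CPM in WT(N48) and 149, 129.5 and 138 in MT194, with 0.24 (SE 0.21, adjusted p = 0.509) over all clones and 0.59 (adjusted p = 0.0424) without WT(N48) clone 3. That clone also had the lowest Nelfb of its group, 56.3 CPM, and whether this bears on the levels was not tested.

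Of the 8 members, 1 was called in MT486 against WT(N48), where 0.287% of genes were. Insig1 held 35.8, 35.02 and 30.9 CPM in the MT486 clones, a log2 fold change of −1.89 (SE 0.30, adjusted p = 0.0263), which was lost without any of the MT486 clones in turn (adjusted p = 0.0561 to 0.153). The tests count MT486 as 3 clones, although clones 1 and 2 may not be independent. Srebf2 at −0.75 (SE 0.19, adjusted p = 0.108) and Stard4 at −1.08 (SE 0.32, adjusted p = 0.139) were called by DESeq2 and not by edgeR (adjusted p = 0.012 and 0.0391, 3.16% of genes called). Between Δ-C60 and WT(N48), edgeR called none of the 8 genes and none had an unadjusted p under 0.05, with 0% of all genes called. DESeq2 called none of the 8 either. Insig1 in the Δ-C60 clones, at 95.1, 84.2 and 93.8 CPM, lay just below WT(N48) without overlap, at −0.47 (SE 0.29, adjusted p = 0.571). Srebf2 differed by −0.08 (SE 0.19, adjusted p = 0.91), Stard4 by −0.33 (SE 0.32, adjusted p = 0.733) and Insig2 by −0.32 (SE 0.18, adjusted p = 0.515). A p that misses the threshold does not show that the groups were alike.

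**Figure D4:**
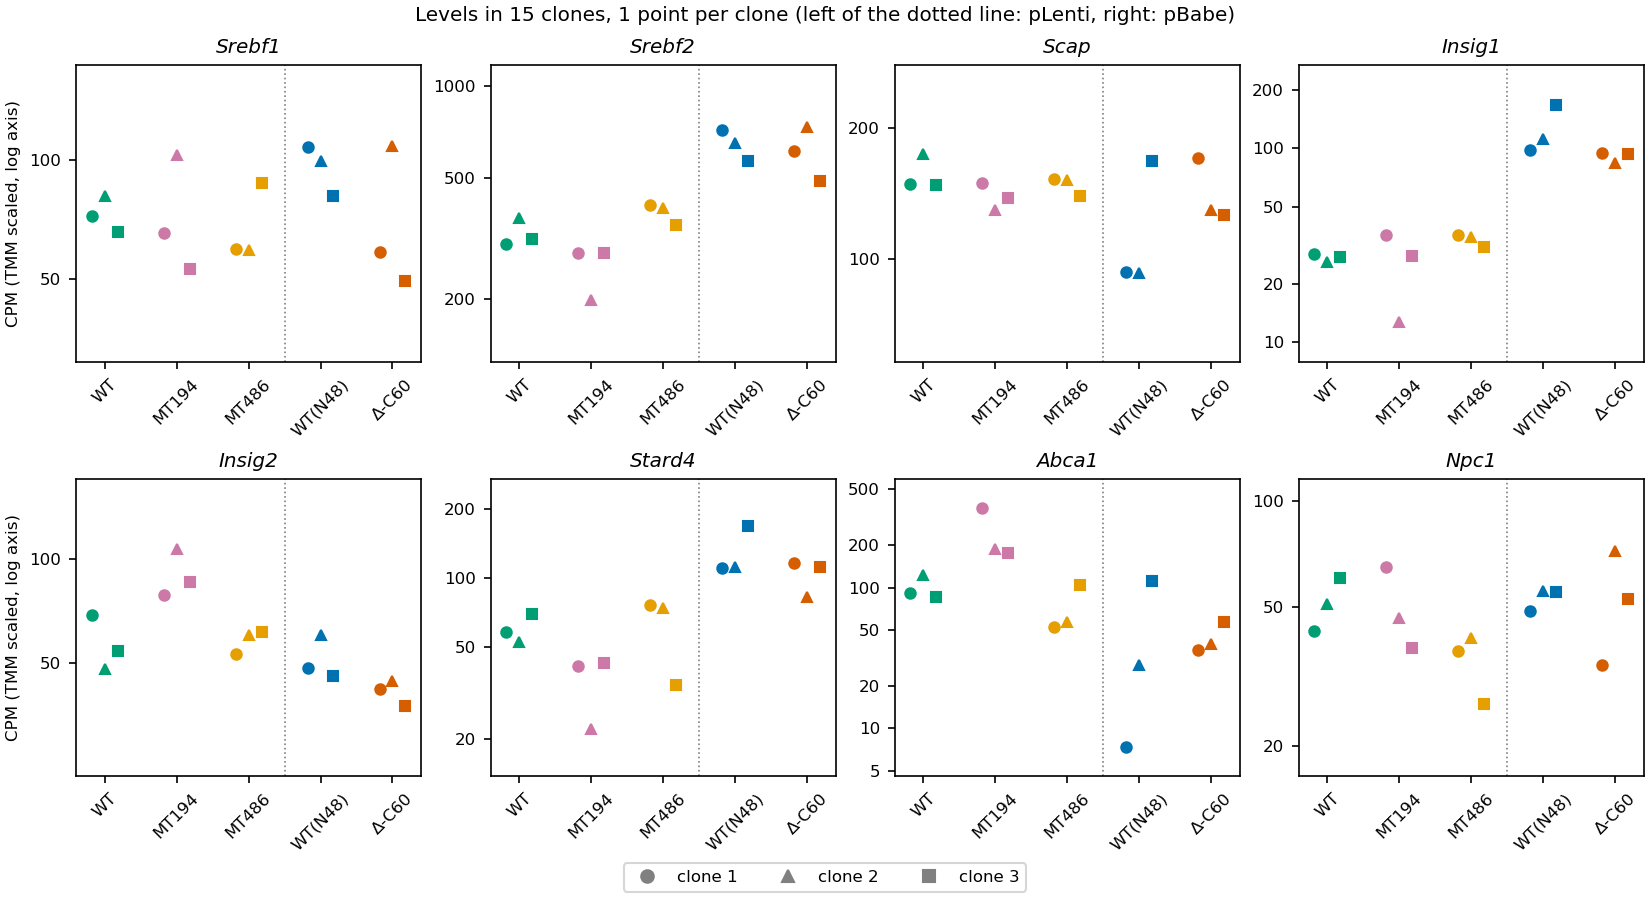
Levels of the 8 genes in the 15 clones, as CPM on a log axis, 1 point per clone with the marker giving its number, and pLenti groups left and pBabe groups right of the dotted line. Srebf2, Insig1 and Stard4 lie lower in all 9 pLenti clones than in any of the 6 pBabe clones, and Abca1 and Insig2 are highest in MT194.

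The libraries labelled WT, in pLenti, had levels unlike those of WT(N48). Insig1 held 28.5, 25.9 and 27.4 CPM in their clones 1, 2 and 3, so clone 2, which kept a high Nelfb, was as low as the others. Srebf2 held 302, 368 and 315 CPM and Stard4 58.5, 52.8 and 69.7. Against these libraries, Insig1 was higher in WT(N48) by 2.21 (SE 0.30, adjusted p = 0.0088) and in Δ-C60 by 1.74 (SE 0.30, adjusted p = 0.00906), and Srebf2 by 0.98 (SE 0.19, adjusted p = 0.0294) and 0.90 (SE 0.19, adjusted p = 0.0183), where 2.10% and 8.33% of genes were called. Stard4 was not called in this fit. DESeq2 called Stard4 in WT(N48) at 1.11 (adjusted p = 0.0202), where it called 5.98% of genes. With the compared groups alone edgeR called it as well, at 1.12 (adjusted p = 0.0422). In Δ-C60 Stard4 was at 0.78 and was called in no fit. Leaving out 1 clone at a time, the call of Insig1 was lost without WT clone 1 or 3 in WT(N48) (adjusted p = 0.0517 and 0.0665) and without WT clone 1 in Δ-C60 (adjusted p = 0.051). That of Srebf2 was lost without WT clone 1 or 3 in Δ-C60 (adjusted p = 0.0888 and 0.0793) and in 5 of 6 fits in WT(N48). Without WT(N48) clone 3, Scap (−0.77, adjusted p = 0.0272) and Abca1 (−2.50, adjusted p = 0.0334) were also called in WT(N48). Without WT clones 1 and 3 none of the 8 members was called in either comparison, which then rests on a single WT clone assumed to vary like the other groups. The log2 differences of Insig1 were then 2.26 (SE 0.52, adjusted p = 0.454) in WT(N48) and 1.78 (SE 0.51, adjusted p = 0.29) in Δ-C60, as large as with all WT clones and with a larger SE, and those of Srebf2 were 0.80 (SE 0.30, adjusted p = 0.578) and 0.71 (SE 0.30, adjusted p = 0.386). For MT194 and MT486 against the libraries labelled WT, no member was called, 2 and 0 had an unadjusted p under 0.05, and 2.90% and 0% of genes were called, with Insig1 at −0.10 (SE 0.29, adjusted p = 0.877) and 0.31 (SE 0.29, adjusted p = 0.852). Without WT clones 1 and 3 no member was called either, with Insig1 at −0.04 (SE 0.45, adjusted p = 0.983) and 0.39 (SE 0.46, adjusted p = 0.963). With all WT clones DESeq2 called 1, Insig2 in MT194, at 0.67 (SE 0.19, adjusted p = 0.0123), where it called 5.96% of genes. Without clones 1 and 3 edgeR gave 0.90 (SE 0.26, adjusted p = 0.264) for it.

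Sorted by the vector in their labels, a grouping made after the levels had been seen, the 9 pLenti clones held 12.7 to 35.8 CPM of Insig1 and the 6 pBabe clones 84.2 to 168. Srebf2 ran from 198 to 407 CPM in pLenti and from 487 to 733 in pBabe, and Stard4 from 22.1 to 76.3 and from 82.8 to 169. For these 3 members all pLenti clones were below all pBabe clones, as for 1.07% of genes tested, and the other 5 members overlapped. The construct and the vector cannot be told apart here. Wild-type NELFB was in both vectors, but as WT and WT(N48), which the labels name as separate constructs, and 2 of the 3 WT clones held little Nelfb RNA.

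Other genes of the lists also differed between the clones, read here against WT(N48), in pBabe, only. MT194 and MT486 were in pLenti, so construct and vector cannot be told apart here either. Of the 19 sterol synthesis enzymes, 13 were lower in MT194 than in WT(N48), where 5.82% of all genes were called, 3 were lower in MT486 (Fdps, Hmgcs1 and Sqle), where 0.287% were, and none was called in Δ-C60. Idi1 and Fdps were at −2.74 (SE 0.33, adjusted p = 0.00191) and −2.33 (SE 0.28, adjusted p = 0.00191) in MT194. Of the 12 lipogenic enzymes, 2 were lower in MT194, Elovl6 with −1.22 (SE 0.17, adjusted p = 0.00464) and Fasn (fatty acid synthase) with −1.08 (SE 0.20, adjusted p = 0.0137), and 1 in MT486, Elovl6 with −1.18 (SE 0.17, adjusted p = 0.0119). Scd1 was at −0.81 (SE 0.24, adjusted p = 0.0638) and was not called. None of the 12 genes of SREBP processing and turnover and none of the 8 of LXR and its targets was called in MT194 against WT(N48), and Lpcat3 was at 0.25 (SE 0.43, adjusted p = 0.751). Of the 16 genes of uptake, storage and transport, 2 were lower, Tmem97 with −1.10 (SE 0.23, adjusted p = 0.0226) and Lrp8 (a lipoprotein receptor) with −1.26 (SE 0.33, adjusted p = 0.043). Cav1, which rose after Cre in the populations, was at −0.32 (SE 0.63, adjusted p = 0.784) in the MT194 clones.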

How the data were processed

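RNA-seq was measured in 20 populations and 15 clones. Per the labels and the methods of the study, poly(A) RNA went into stranded mRNA libraries, and the authors aligned reads to mm10 with Bowtie2 and deposited raw counts per gene from HTSeq, with SAMtools and DESeq2 also named. Their versions and the strand setting of the counting are not given in the sources used here. Rows that name no gene were left out (no-feature reads were 11.7% to 21.3% of each population library and 9.14% to 12.0% of each clone library).

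Populations and clones were fitted apart with edgeR 4.0.16 in R 4.3.3 (filterByExpr, TMM factors, 1 mean per group, robust quasi-likelihood test), over 13805 and 13223 genes, with Benjamini-Hochberg adjustment over all genes tested. Likeness and Cre minus GFP differences within replicates used log2 of CPM plus 0.5. The SE is the absolute log2 fold change divided by the square root of F. Alternatives were DESeq2 1.42.0, a replicate block, the compared groups alone, other size factors, no filter on low counts, a log2 fold change over 1, leaving out each library and leaving out WT clones 1 and 3. The fits were tested on simulated data.

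The replicate numbers pair the populations. Per the methods of the study the populations came from independent experiments, and deviations from the group means correlated in 45 of 45 pairs of same-numbered libraries (r = 0.517 to 0.824). Clone numbers pair nothing (4 of 30 pairs over 0.1), so clones were compared without a block. No libraries of a group differed by less than sampling noise. The most alike were MT486 clones 1 and 2, with a chi-square per degree of freedom of 5.06. It was 87.6 for MT486 clones 1 and 3 and 79.8 for clones 2 and 3, and the next lowest in any group was 32.4. Whether MT486 clones 1 and 2 are independent clones was not tested. P-values measure the spread between these libraries only.

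The members and lists were chosen with earlier results of these data known. Genes named are the 8 members, Nelfb, the up to 3 called genes of each list with the largest change in each direction after Cre in EV, the 3 genes most like each member over the populations, and those said to be named after their values were seen or given where a count was 5 or fewer. Some genes that these rules take in are not reported here. Promoters are from RefSeq on GRCm38.p6 (the build of mm10) and exons from GRCm38.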

Additional observations from a re-analysis of the deposited data

Results flagged for a closer look

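These results were singled out because the effect of Cre differed between a construct and EV by a test of the difference itself (edgeR, adjusted over all genes tested). For Nelfb, the Cre effect minus that in EV was 2.27 in WT, 3.38 in MT194, 3.18 in MT486 and 4.15 in DMT on the log2 scale, where reads of the construct count as Nelfb. For Srebf2 it was 1.79 in WT, and for Insig1 2.80 in WT. All of these comparisons share the EV libraries. No test for a single outlying library was run, since each group held 2 or 3.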

How the results depend on the processing

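Of 216 values (8 genes in 27 comparisons), 57 were called in the reported fit or in some alternative, and none of those changed sign. The other 159 were never called, and the largest of them in size to change sign was 0.39 on the log2 scale. With the replicate as a block, which the pairing of the populations allows, more genes were called in all, and shares of all genes tested follow each count. The members called became 4 in MT486 after Cre (12.1%). Against EV-Cre they became 3 in MT194-Cre (6.22%), 3 in MT486-Cre (8.95%) and 1 in DMT-Cre (0.348%). Against WT-Cre they became 3 in MT194-Cre (10.9%) and 3 in MT486-Cre (5.24%). In the differences of the Cre effect of MT194 and MT486 from that of EV they became 1 (0.978%) and 3 (2.68%). The block also moved WT(N48) against WT clones to 1 (0.771%), although clone numbers pair nothing, and it moved the other counts by 1.5 times or less. DESeq2 called 3 in MT486 after Cre (3.45% of all genes it tested), 2 in MT194-Cre and 2 in MT486-Cre against EV-Cre (1.06% and 2.05%), 2 in MT194-Cre against WT-Cre (2.26%), 1 in the difference of MT486 from EV (0.221%), 3 in MT486 against WT(N48) clones (3.16%) and 1 in MT194 against WT clones (5.96%).

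With the compared groups alone, 0 were called in MT194 and 0 in MT486 after Cre, 0 in MT194-Cre and 0 in MT486-Cre against WT-Cre, 1 in DMT-Cre against WT-Cre, 1 in the difference of WT from EV, 2 in MT194 against WT(N48) clones (Insig1 and Insig2 were lost) and 1 in Δ-C60 against WT clones. Those fits rest on fewer libraries. Without the filter on low counts, 1 was called in DMT-Cre against WT-Cre and 1 in the difference of WT from EV. A log2 fold change over 1 left 1 in Δ-C60 and 1 in WT(N48) against WT clones, and leaving out WT clones 1 and 3 left 0 and 0. Leaving out 1 library at a time, the counts ran from 1 to 2 in MT194 after Cre, 0 to 1 in MT194-Cre against WT-Cre, 0 in MT486-Cre against WT-Cre, 1 in DMT-Cre against WT-Cre, 0 to 2 in the difference of WT from EV, 0 to 1 in MT486 against WT(N48) clones, 0 to 2 in Δ-C60 against WT clones and 0 to 4 in WT(N48) against WT clones. These fits had no block, so leaving out a population library also left its partner unpaired. The cause of these moves was not tested. In every such fit 3 members were called in EV after Cre and 0 in WT. The shares of all genes called in the fits of this paragraph are not given here, so nothing is read from these counts about the members. Each test rests on 2 or 3 libraries a group, and depth was not varied.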
